A study of Mus musculus with 8 samples.

Results

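The Mediator and Integrator genes are the 45 protein-coding mouse genes whose symbol is Med or Ints followed by digits, with or without a final letter. They comprise 30 Mediator genes and 15 Integrator genes, out of 21900 protein-coding RefSeq genes (build GRCm38.p6, the assembly of mm10). The values are peaks of m6A (N6-methyladenosine), a base modification of messenger RNA, in mouse embryonic stem cells that carry a doxycycline (Dox) inducible knockdown of Setd2, the histone H3 lysine 36 methyltransferase gene. Knockdown cells received 1 µg/ml Dox for 4 days. Control cells carried the same construct and received no Dox, so effects of Dox itself and of the knockdown cannot be told apart. All cells grew without feeders as spheres without serum, in LIF with the MEK inhibitor PD0325901 and the GSK3 inhibitor CHIR99021, a mixture known as 2i that keeps them naive. There were 8 libraries, with 2 replicates each of Dox m6A IP, Dox input, control m6A IP and control input.

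Mediator is a large protein complex that carries signals from transcription factors bound at enhancers to RNA polymerase II at promoters. Its head and middle modules contact the polymerase, its tail contacts activators, and a separable kinase module with CDK8 or CDK19 and cyclin C controls its access to the polymerase. Integrator is an RNA endonuclease complex that also carries protein phosphatase 2A. It forms the 3' ends of small nuclear RNAs and ends transcription early at many genes. Both complexes meet the elongation machinery near promoters. m6A on coding transcripts is known to be frequent near stop codons and in long internal exons and to shorten transcript life.

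The authors called 1 table of peaks per condition on both replicates together. No replicate spread can be had from these tables, read numbers are unknown, and no difference between the conditions was tested. The fold of a peak is the authors' IP over input ratio, and its log10 FDR is the strength of the call (lower is stronger). Transcript levels were not measured by these peaks. Setd2, the targeted gene, had 6 peaks in Dox and 10 in control, which does not show how far it was depleted. Of 9 markers of naive stem cells, 9 carried peaks in both conditions, against 79.9% of all identifiers with a peak. Such peaks show only that the transcripts were there to be pulled down, not that the naive state was kept. In the whole tables there were 27612 Dox peaks and 25815 control peaks, on 13110 Ensembl identifiers.

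Of the 45 genes, 40 carried an m6A peak in at least 1 condition. Of all 21900 protein-coding genes, 10796 were matched to an identifier with a peak. Peaks were found in both conditions for 37 genes, in Dox only for 3 and in control only for 0. Of all 13110 identifiers, each with a peak in at least 1 condition, 79.9% had peaks in both, 11.1% in Dox only and 8.92% in control only. All 14 Integrator genes with a peak had them in both conditions, and so did 23 of the 26 Mediator genes with a peak. The Integrator count depended on weak peaks. In the authors' stricter lists, which keep peaks whose fold is 2 or more and whose p is 1e-05 or less, 7 Integrator genes had peaks in both conditions, 3 in Dox only and 3 in control only, against 76%, 9.74% and 14.2% of all identifiers in those lists. Limited to peaks with a log10 FDR of -5 or less, these counts were 8, 4 and 2, against 77.3%, 9.76% and 12.9%. Mediator genes with peaks in both conditions numbered 20 in the stricter lists and 21 under that limit. In 15 genes every peak of either condition overlapped a peak of the other, where overlap means sharing 1 or more exonic nucleotides of 1 strand. The same count was not made over all identifiers, so 15 cannot be called many or few.

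The 3 genes with peaks in Dox only had a single weak peak each. Med23, a tail subunit that binds activators of the MAP kinase pathway, had a Dox peak of fold 1.63 at a log10 FDR of -2.20 on chromosome 10 (24898439 to 24898559). The tail subunit gene Med24 had a Dox peak of fold 1.34 at -2.22 on chromosome 11 (98728879 to 98728939). Med27 had a Dox peak of fold 1.60 at -2.58 that began near the gene's start on chromosome 2 (29346938 to 29349855). None of the 3 peaks is in the stricter lists.

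No peak was assigned to 5 genes: the scaffold subunit gene Med14, the tail gene Med15, the middle gene Med31, the kinase module gene Med12l and the Integrator backbone gene Ints2. Within the Med15 interval an identifier on the opposite strand had 1 peak in either condition. The libraries were stranded, per the labels' protocols, so that peak was not counted for Med15. Identifiers on the strand opposite to Ints11, Med1, Med7, Med10 and Med26 also had peaks within those genes' intervals, and were left out in the same way. Med12l is the paralog of Med12, and Med12 had 2 Dox peaks and 1 control peak. Absence of a peak does not show absence of the transcript or of the mark.

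**Figure D1:**
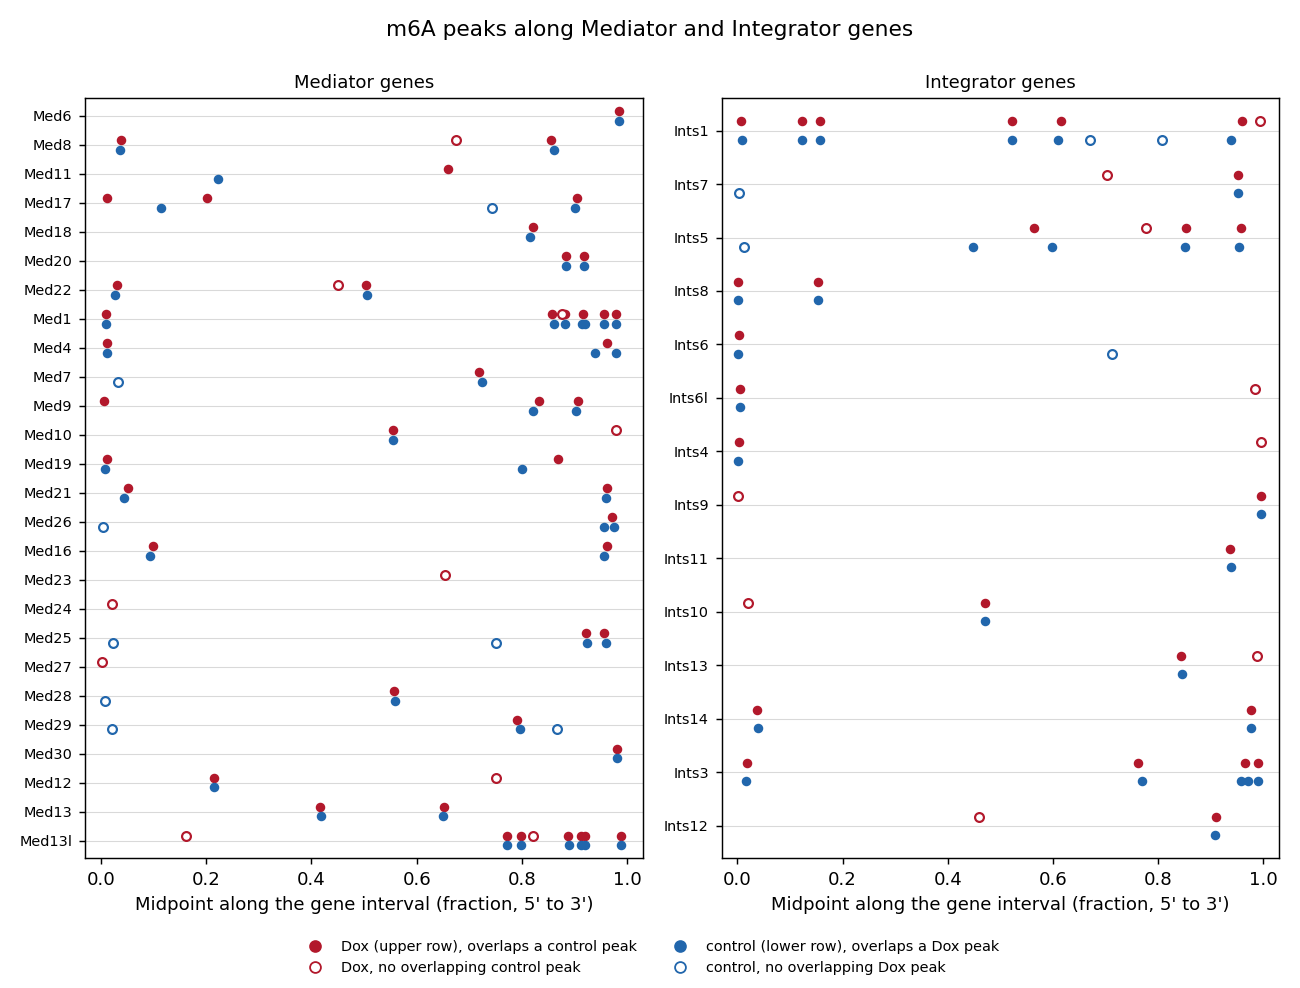
Peak midpoints along each gene with a peak, as a fraction of the RefSeq gene interval from 5' to 3' (introns included). Red points above each line are Dox peaks, blue points below it are control peaks, and open points have no overlapping peak in the other condition. Open blue points gather at the left edge, with 7 control peaks at the 5' end without a Dox peak against 2 such Dox peaks without a control peak; 1 peak per condition of the Ints5 identifier, outside the gene, is not drawn.

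The number of peaks was close in both conditions. The 45 genes held 92 Dox peaks and 89 control peaks, of which Mediator genes held 56 and 55 and Integrator genes 36 and 34. Med13l had the most Dox peaks, 8 against 6 in control. Ints1 had the most control peaks, with 7 in Dox and 8 in control. Med1, which encodes the subunit that binds nuclear receptors, had 7 in either condition, and the Ints5 identifier had 5 in Dox and 6 in control. For Ints5, 1 peak per condition lay upstream of its interval, within the intervals of Lbhd1 and 1810009A15Rik, where other identifiers also had peaks.

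Most peaks of these genes had a counterpart. Among Dox peaks, 19 of 92 overlapped no control peak (20.7%, exact 95% binomial interval 12.9% to 30.4%), against 29.1% of all Dox peaks. Of the 89 control peaks, 13 had no overlapping Dox peak (14.6%, 8.01% to 23.7%), against 19.3% of all control peaks. These intervals cover counting error only. By complex, 17.9% of Mediator and 25% of Integrator Dox peaks lacked a control peak, and 14.5% of Mediator and 14.7% of Integrator control peaks lacked a Dox peak. The order of the Dox and control shares turned in the authors' stricter lists, where 21.8% of the genes' Dox peaks and 29.7% of their control peaks lacked a counterpart, against 22.3% and 24% over all peaks of those lists.

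Over all peaks the share without a counterpart was lower for stronger calls. The genes' Dox peaks ran in the same order. Their control peaks did not, but the exact 95% intervals of the first 2 control shares below overlapped (4.19% to 33.7% and 9.59% to 41.1%). Above a log10 FDR of -5, 11 of 32 Dox peaks (34.4%) and 4 of 27 control peaks (14.8%) lacked a counterpart, against 52.1% and 40.4% over all such peaks. Between -20 and -5, 8 of 33 Dox peaks (24.2%) and 7 of 31 control peaks (22.6%) did, against 20% and 14.8%. At -20 or less, 0 of 27 Dox peaks (exact 95% interval up to 12.8%) and 2 of 31 control peaks (6.45%, 0.791% to 21.4%) did, against 2.8% and 1.36%. At -5 or less taken as a whole, 8 of 60 Dox peaks and 9 of 62 control peaks lacked a counterpart, against 11.6% and 7.56%. The 2 control peaks at -20 or less were a peak of Med17 on chromosome 9 (15263706 to 15267418, fold 2.29, log10 FDR -20.5) and a peak of Ints1 on chromosome 5 (139755207 to 139756297, fold 3.77, log10 FDR -21.4). Med17 encodes a central head subunit and Ints1 the largest Integrator backbone protein.

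The genes' folds were below those of the tables as a whole. The median fold was 3.01 for their Dox peaks and 3.10 for their control peaks, against 3.51 for all Dox peaks and 4.62 for all control peaks. A fold of at least 4 was reached by 31.5% of the genes' Dox peaks and 37.1% of their control peaks, compared with 41.3% of all Dox and 57.8% of all control peaks. Mediator peaks had median folds of 3.33 in Dox and 3.76 in control, and Integrator peaks 2.56 and 2.83. Their Dox peaks had a median of 270 exonic nt and their control peaks 210, against 240 and 211 over all peaks.

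High folds were fewer in Dox, in these genes as in the whole tables. A fold of 8 or more was reached by 5 of the genes' Dox peaks (5.43%) and 15 of their control peaks (16.9%), against 9.4% of all Dox and 26.8% of all control peaks. Of these, 3 Dox peaks and 2 control peaks had a log10 FDR above -5. Over all peaks with such a fold, 58.9% of Dox and 26.3% of control peaks lay above -5.

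In the Mediator head, which binds RNA polymerase II, all 7 genes had peaks in both conditions. Med11 had 1 peak per condition, with a fold of 6.59 in Dox and 16.3 in control and log10 FDRs of -86.0 and -230. Both peaks began at 70451919 on chromosome 11, in a gene of 1815 nt. Med18 had 1 peak per condition near its 3' end, with a fold of 7.34 in Dox and 12.3 in control on chromosome 4. The Dox peak spanned 132459327 to 132459983 and the control peak had the same upper bound. Med20 had the highest Dox fold of the module, 8.13 at a log10 FDR of -3.46, against a control fold of 4.06 at -3.93 for the overlapping peak. Its second Dox peak was better supported, with a fold of 3.89 at -17.6, against a control fold of 2.78 at -6.82. Med20 was therefore higher in Dox in both of its peaks, but it shares its interval with the read-through gene Gm20517, so its peaks cannot be assigned to Med20 alone.

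Med17 showed a peak that was fused in control. Near its start, 2 Dox peaks of folds 3.83 and 1.97 lay within a single control peak (15274540 to 15279867 on chromosome 9) of fold 9.65. Med22 had a Dox peak of fold 2.74 at a log10 FDR of -3.76 between its ends (26907830 to 26908039 on chromosome 2), where the overlapping control peak had 11 at -42.9. At the 5' end of Med22 the folds were nearly equal, 4.70 in Dox and 4.72 in control. The remaining head genes Med6 and Med8 had top folds of 5.84 and 5.42 in Dox, and of 7.18 and 8.0 in control. Those of Med6 had log10 FDRs of -62.1 and -57.6, but those of Med8 were weak calls at -1.32 and -2.3. The better supported 3' end pair of Med8 had folds of 2.18 in Dox and 1.84 in control.

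Of the 9 middle module genes, 8 had peaks in both conditions. Med26, whose product joins Mediator to elongation factors, had the highest Dox fold of the module. Its wide Dox peak (72495154 to 72497536 on chromosome 8, 1967 exonic nt) had a fold of 9.33 and overlapped 2 control peaks with folds of 18.8 and 5.75. Med7 had the highest control fold of the module, 24.6, in a peak described with the 5' ends below. Its other peak was shared, with folds of 3.41 in Dox and 3.76 in control. Med4, Med19 and Med21 had top folds of 3.48, 4.27 and 7.05 in Dox, and of 3.93, 3.51 and 5.23 in control. Those of Med21 were weak calls, with log10 FDRs of -2.02 and -2.5. The better supported 3' end pair of Med21 had folds of 3.72 in Dox and 2.94 in control. Med9 had 3 Dox peaks, and 2 of them, with folds of 3.25 and 4.93, overlapped 1 control peak of fold 12.3 in 2 exonic blocks (59948206 to 59960946 on chromosome 11). Med10 had a shared peak with identical bounds in both conditions on chromosome 13 (69809882 to 69811644), with a fold of 3.04 in Dox and 6.86 in control. A Dox peak at its 3' end had no control peak (fold 2.11, log10 FDR -15.4, 69815678 to 69815946).

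In Med1 most peaks of the 2 conditions overlapped. Its 7 Dox peaks had folds from 2.47 to 5.73 and its 7 control peaks from 2.01 to 7.49, and all but 1 of the 14 overlapped a peak of the other condition. The exception was a Dox peak of fold 5.73 at a log10 FDR of -5.31. The peak over the start of Med1 had identical bounds in both conditions (98189192 to 98193293 on chromosome 11), with folds of 5.15 in Dox and 7.49 in control.

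Of the 5 tail genes, whose products receive activators, 2 had peaks in both conditions. Med25 had 2 Dox peaks and 4 control peaks. Its pair near the 3' end had folds of 5.47 in Dox and 6.45 in control, and the next pair 2.98 and 7.85. Med16 had 2 peaks per condition, with top folds of 3.89 in Dox and 5.54 in control. Among Med27 to Med30, which link head and tail in animals, Med29 had the highest Dox fold, 5.27 at a log10 FDR of -64.3. The overlapping control peak had 3.08 at -13.5. A control peak of fold 11.1 near the 3' end of Med29 had no Dox peak (28386146 to 28386325 on chromosome 7, log10 FDR -6.74). Med28 had a shared peak of fold 1.18 in Dox and 2.01 in control, and Med30 one of 1.62 and 1.81.

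In the kinase module, Med13l had 1 weak Dox peak 33036 nt from its start (fold 1.84), and its other peaks had midpoints at least 158214 nt from the start of an interval of 205109 nt. Its 6 control peaks all overlapped a Dox peak. In this gene the folds of paired peaks lay on both sides of equality: 2.09 in Dox and 5.70 in control for the first pair, but 5.48 in Dox and 2.97 in control for the peak at 118741897 to 118745029 (Dox bounds) on chromosome 5. The latter peak was 900 exonic nt in Dox and 181 in control, so its 2 folds are over unlike regions. The paralog Med13 had 2 shared peaks, with folds of 6.51 and 4.99 in Dox and 8.28 and 4.31 in control. Med12, which activates the kinase of the module, had a shared peak of fold 4.47 in Dox and 3.26 in control on the X chromosome (101278507 to 101280616, Dox bounds). The Med12 transcript also had a weak Dox peak with no control peak (fold 1.97, log10 FDR -3.12).

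**Figure D2:**
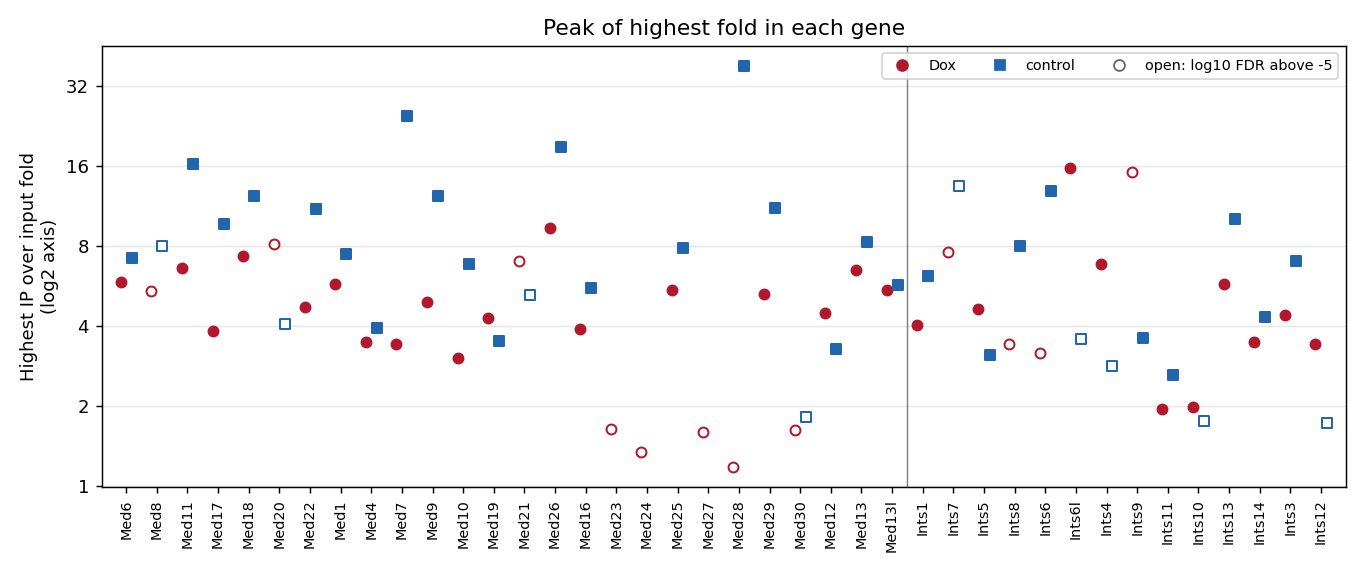
Fold (IP over input, log2 axis) of the peak with the highest fold in each gene, for Dox (red circles) and control (blue squares), 1 pooled value per condition with no error. Open symbols have a log10 FDR above -5. The highest values are control peaks of Med28 (38.1) and Med7 (24.6), and Ints6l (15.7) has the highest Dox value.

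In the Integrator backbone, 2 of 3 genes had peaks, in both conditions. The pair of Ints1 peaks with the highest folds had midpoints near 3822 nt from the start (139771616 to 139772155 on chromosome 5, Dox bounds), with folds of 4.04 in Dox and 6.17 in control. Ints7 had a shared peak with a Dox fold of 3.70 at a log10 FDR of -52.1 and a control fold of 2.26 at -12.7 (191621169 to 191621529 on chromosome 1, Dox bounds). Its highest folds in either condition, 7.59 in Dox and 13.5 in control, belonged to weak peaks at different places that had no counterpart, with log10 FDRs of -2.26 and -3.29. In the shoulder, Ints5 had a Dox peak of 1406 nt with a fold of 4.63 (8895049 to 8896454 on chromosome 19) that covered 2 control peaks of folds 1.98 and 3.10. Ints8 had 2 peaks per condition, and its 5' end pair had folds of 3.43 at a log10 FDR of -1.79 in Dox and 8.0 at -9.81 in control.

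The cleavage module holds the endonuclease INTS11 with INTS9 and INTS4. Ints11 had 1 peak per condition at the same place, with folds of 1.95 in Dox and 2.61 in control (155887752 to 155888086 on chromosome 4, Dox bounds). Ints9 had a shared 3' end peak with folds of 2.58 in Dox and 3.59 in control. A second Ints9 peak was in Dox only, at the 5' end, with a fold of 15.2 at a log10 FDR of -3.27 (64950075 to 64950253 on chromosome 14). Ints4 had a shared 5' end peak with a fold of 6.87 at a log10 FDR of -16.7 in Dox and 2.83 at -2.59 in control. That shared peak was 300 exonic nt in Dox and 151 in control. Ints4 also had a 3' end peak in Dox only (fold 1.91, log10 FDR -10.8).

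The phosphatase module paralogs Ints6 and Ints6l, whose products bind protein phosphatase 2A, differed in opposite directions at their 5' ends. The Ints6 peak had a fold of 3.15 at a log10 FDR of -3.32 in Dox and 12.9 at -24.0 in control (62760873 to 62761052 on chromosome 14, Dox bounds). The Ints6l peak had a fold of 15.7 at -6.28 in Dox and 3.57 at -3.11 in control (56454947 to 56455245 on chromosome X, Dox bounds). Exonic widths were 180 nt in Dox and 270 in control for Ints6, and 299 and 150 for Ints6l. In each pair the weaker call lay above a log10 FDR of -5, and no test of either difference can be made.

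Ints13 and Ints14, of the arm that binds transcription factors, had shared peaks. The Ints13 pair had folds of 5.76 in Dox and 10.1 in control, with log10 FDRs of -38.7 and -102, and both peaks had their lower bound at 146551371 on chromosome 6. The Ints14 pair at the 3' end had folds of 3.47 in Dox and 4.32 in control. Ints10, of the same arm, had top folds of 1.98 in Dox and 1.76 in control. Ints3, which also belongs to a complex that binds single-stranded DNA, had a 3' end peak of fold 4.38 in Dox and 7.03 in control, with log10 FDRs of -137 and -280 and a shared lower bound at 90391418 on chromosome 3. Ints12 had a shared peak of fold 3.42 at -11.9 in Dox and 1.73 at -2.26 in control, of 361 and 121 exonic nt.

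Peaks at the gene 5' ends were where control peaks most often lacked a counterpart, in these genes as in the tables as a whole. A peak was placed at the 5' end when the midpoint of its exonic length lay within 500 nt of the start of the RefSeq interval, at the 3' end when it lay within 1000 nt of the end, and otherwise between them, in genes of at least 3000 nt. There were 15 Dox peaks and 18 control peaks at 5' ends, 16.7% and 20.7% of those placed, against 7.79% and 13.2% over all placed peaks. Among these, 2 of 15 Dox peaks were without a control peak (13.3%, 1.66% to 40.5%), against 14.5% over all Dox 5' end peaks. Of the 18 control peaks, 7 had no Dox peak (38.9%, 17.3% to 64.3%), against 38.5% over all control 5' end peaks. Both shares are near those of the whole tables. Between the ends, 12 of 55 Dox peaks (21.8%) and 5 of 53 control peaks (9.43%) lacked a counterpart, against 30.2% and 16.1% over all such peaks. At 3' ends 5 of 20 Dox peaks (25%) and 1 of 16 control peaks (6.25%) did, against 31.6% and 10.7%.

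**Figure D3:**
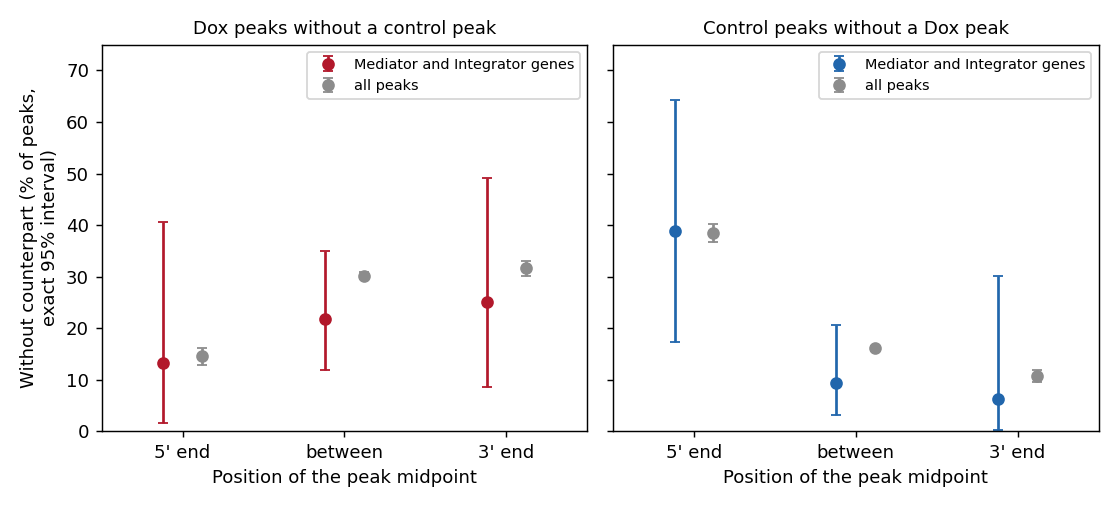
Share of peaks (percent) that overlap no peak of the other condition, by position of the peak midpoint, for the Mediator and Integrator genes (coloured) and for all peaks (grey). Bars are exact 95% binomial intervals of counting error. Among control peaks (right) the 5' end share of the genes, 38.9%, is close to that of all peaks, 38.5%.

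The 7 control 5' end peaks without a Dox peak belonged to Med7, Med25, Med26, Med28, Med29, Ints5 and Ints7. The Med28 peak had the highest fold of all peaks in these genes, 38.1, over only 60 nt (45520259 to 45520318 on chromosome 5, log10 FDR -8.64). The Med7 peak was the best supported, with a fold of 24.6 at a log10 FDR of -18.2 (46436985 to 46437254 on chromosome 11). The Med29 peak had a fold of 2.35 at -7.44 (28391138 to 28392619 on chromosome 7) and the Med26 peak 6.40 at -7.31 (72548012 to 72548250 on chromosome 8). The peaks of Ints7 (13.5), Ints5 (2.43) and Med25 (2.34) had log10 FDRs of -3.29, -4.72 and -2.26. Each of these 7 genes had at least 1 shared peak further along. The 2 Dox 5' end peaks without a control peak were those of Ints9 and Med27 described above, both with log10 FDRs above -5.

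At some starts the peaks of both conditions overlapped but differed in where they began. Sequence around annotated starts shows which first bases the peaks reached. The windows below, from RefSeq (GRCm38.p6), run from 20 bases before the annotated start to 30 bases of transcribed sequence, 5' to 3' on the gene's strand. Capitals mark bases inside a control peak. Ints6, Med19 and Med22 are shown because the Dox peak starts later, and Med4, Med9 and Med11 because peaks of both conditions start alike. Med28 is shown because its strong control peak starts just past the window. Other pairs with both peaks at the 5' end are not shown, and more of them began later in Dox than earlier. The later ones were Med8 (118409500 in Dox, 118409440 in control), Med21 (146642965 and 146642845) and, on the minus strand, Ints8 (11254228 and 11254258) and Ints1 (139775584 and 139775614). The Dox calls of these genes were weak, with log10 FDRs above -5. Only Ints6l began earlier in Dox (56454947 against 56454977), and Med1 and Ints4 began alike. The shift was small in Med19 (84678432 in Dox, 84678402 in control) and larger in Med21. The resolution of the peak bounds is not known, and no shift was tested.
Ints6 (chr14:62761083-62761132, minus strand): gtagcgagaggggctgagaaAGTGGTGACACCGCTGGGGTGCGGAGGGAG
Med19 (chr2:84678382-84678431, plus strand): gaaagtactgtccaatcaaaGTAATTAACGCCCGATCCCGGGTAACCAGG
Med22 (chr2:26910613-26910662, minus strand): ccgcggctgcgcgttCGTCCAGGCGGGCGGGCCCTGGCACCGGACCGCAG
Med4 (chr14:73510029-73510078, plus strand): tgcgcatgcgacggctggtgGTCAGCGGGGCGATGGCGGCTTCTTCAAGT
Med9 (chr11:59948194-59948243, plus strand): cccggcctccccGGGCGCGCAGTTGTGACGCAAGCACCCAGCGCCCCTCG
Med11 (chr11:70451898-70451947, plus strand): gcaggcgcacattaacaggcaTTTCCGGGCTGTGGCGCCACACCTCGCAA
Med28 (chr5:45520209-45520258, plus strand): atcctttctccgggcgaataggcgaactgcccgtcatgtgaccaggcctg

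Of these 50 bases, control peaks covered 30 in Ints6, 30 in Med19 and 35 in Med22, and Dox peaks covered 0, 0 and 5. In Med4, Med9 and Med11 peaks of either condition covered 30, 38 and 29 bases. The folds of the paired 5' end peaks were 1.90 in Dox and 2.46 in control for Med19, and 2.97 and 3.93 for Med4. m6A antibodies are known to bind also the cap-adjacent base m6Am, which occurs where transcription starts at an adenosine. The annotated first base was A in 12 of the 37 genes with a window, and in 34.4% of all 32851 windows of the table. The letters GGAC, a frequent core of the m6A consensus, were found in the first 50 transcribed bases of 6 of the 37 genes on the transcribed strand and of 2 on the other strand. Over all windows the shares were 18.9% and 17.4%. The longer form GGACT, which contains GGAC, was found in 3 and 1 of the 37, against 5.76% and 4.87% of all windows. A match describes the letters and is not a mapped m6A site, since exonic sequence beyond the first bases was not used here.

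Folds were set side by side for peaks paired 1 to 1, meaning that each peak had the other as its only overlap. There were 63 such pairs in these genes and 16357 in all. Choosing pairs leaves out peaks lost or fused in either condition. The Dox fold was below the control fold in 41 of the 63 pairs (65.1%), against 65.9% of all pairs, a share near that of the tables as a whole. The median log2 of Dox over control fold was -0.27 (quartiles -0.53 and 0.26), against -0.30 over all pairs (-0.86 and 0.18). It was -0.18 in the 39 Mediator pairs and -0.32 in the 24 Integrator pairs. The Dox fold was at most 0.5 of the control fold in 8 of the 63 pairs, against 20.4% of all pairs, and at least 2 times the control fold in 3, against 3.31% of all pairs. The tables were called separately, and the cause of the offset of all pairs was not tested. A pair's ratio can be set beside that offset, which does not show what either reflects.

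Among the 35 pairs whose peaks both had a log10 FDR no higher than -5, the lowest log2 ratios were those of Med25 (-1.40), Med11 (-1.31), Med10 (-1.17) and Ints13 (-0.81). The highest were those of Med13l (0.88), Med29 (0.77), Ints7 (0.71) and Med20 (0.48). The Med25 pair lay on chromosome 7 (44877842 to 44878171, Dox bounds) with folds of 2.98 in Dox and 7.85 in control. The Dox fold was at most 0.5 of the control fold in 3 of the 35, against 20.5% of the 9877 pairs called as strongly, and at least 2 times it in 0, against 1.38%. Of the 63 pairs, the Dox peak was wider in 39, narrower in 15 and of equal width in 9, against 56.8%, 28.6% and 14.5% of all pairs. The 2 folds of a pair are therefore not always over the same nucleotides.

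**Figure D4:**
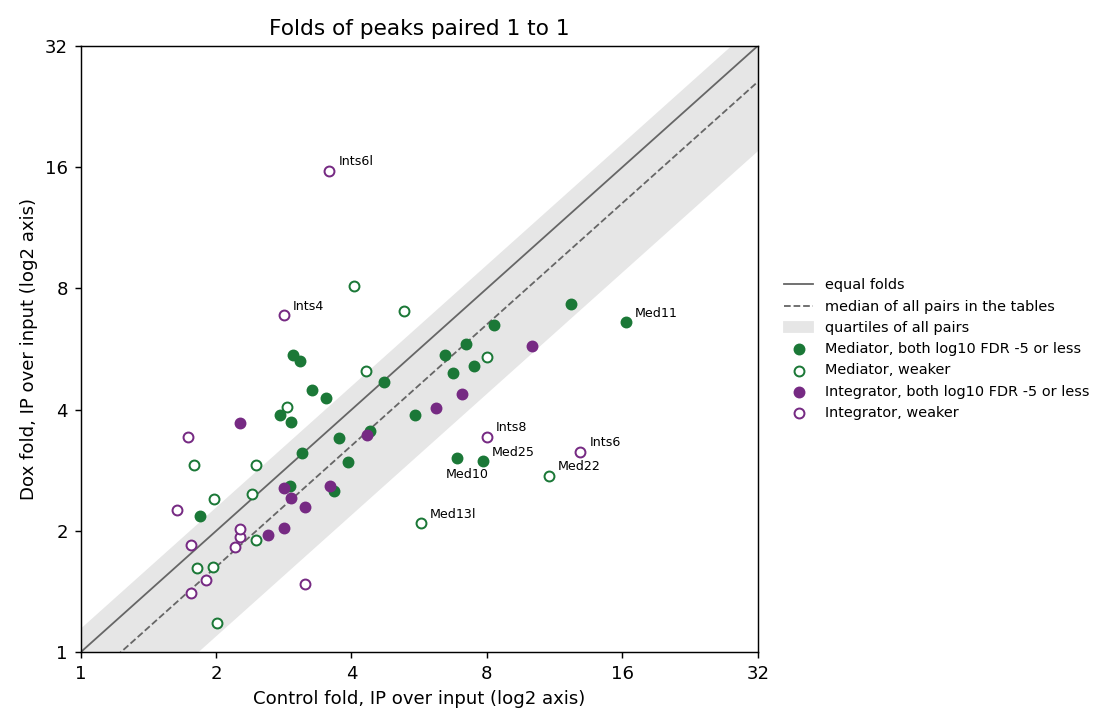
Dox fold against control fold (IP over input, both axes log2) for the 63 peaks paired 1 to 1, with Mediator in green and Integrator in purple. Open points have a log10 FDR above -5 in either condition, and pairs whose log2 ratio is beyond 1.1 in size are named. Most points fall between the quartiles of all 16357 pairs (grey band), and the median of all pairs (dashed) lies at -0.30 log2 units from equality (solid).

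Partner genes of the complexes, from a separate list, were mostly marked in both conditions, as were 79.9% of all identifiers with a peak. Of the kinase module partners, Cdk8 and Cdk19 had peaks in both conditions and the cyclin gene Ccnc had none. Cdk8 had a top fold of 10.3 at a log10 FDR of -7.73 in Dox and 2.37 at -1.52 in control. Cdk19 had 3 peaks in either condition. Of 5 Integrator partners, 4 had peaks in both conditions. The phosphatase 2A catalytic gene Ppp2ca had a top fold of 2.97 in Dox and 18.1 in control. Inip, of the single-stranded DNA binding complex, had 6.97 in Dox and 15 in control. Nabp1, of the same complex, had 1 weak peak in control only (fold 3.23, log10 FDR -1.96). All 6 genes of DSIF and NELF, the factors that hold the polymerase near promoters, had peaks in both conditions. They held 15 Dox peaks and 14 control peaks, of which 2 and 0 lacked a counterpart, against 29.1% and 19.3% over all peaks. Their calls were strong, with median log10 FDRs of -35.9 in Dox and -123 in control. Over all peaks at -20 or less, only 2.8% of Dox and 1.36% of control peaks lacked a counterpart.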

How the data were processed

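m6A IP and input libraries of Dox and control cells were processed by the authors. Build mm10 and the tools TopHat2 2.1.1 and FastQC 0.11.5 are listed in the submitters' processing notes. exomePeak is named by the deposited tables, its version and settings not being given in the sources used here. Each deposited table pools both replicates, so no depth, replicate spread or test exists. Each peak's deposited fold is a ratio (IP to input), scaled in a way the sources do not state. The deposited p-value is the column headed score. The log10 p and log10 FDR columns, per the file headers, were treated as a score. The authors' stricter lists were checked to hold the table rows whose fold reaches 2 and whose p does not exceed 1e-05.

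Ensembl identifiers took their symbol from whichever protein-coding RefSeq gene held at least 50% of their peak midpoints and not fewer than any other gene, never on a known opposite strand. A tie went to the shorter gene. This named 10796 of 13110 identifiers (82.3%). RefSeq windows gave the strand of 37 of the 45 genes, and for the other 8 the strand of the peaks inside the interval was taken. Overlaps were found with bedtools 2.31.1 over exonic blocks, and checked on simulated lists of 300 peaks (0 errors). Coordinates are 1-based. Genes named with values are those with peaks in 1 condition or none, module tops, the 4 with most peaks, the 4 extreme ratios in each direction and 5' end peaks without counterpart; others were named after their values were seen. The genes, lists and rules were chosen with earlier results of these data known. Alternatives were the stricter lists, limits on log10 FDR or fold, 50% overlap, other windows and symbol ties. Python 3.11.15, numpy 2.4.6, pandas 2.3.3, scipy 1.17.1 and matplotlib 3.10.9 were used.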

Additional observations from a re-analysis of the deposited data

How the results depend on the processing

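In the authors' stricter lists the genes held 55 Dox peaks, with 7 Dox and 11 control peaks at 5' ends and 13 Dox peaks at 3' ends. There 29.7% of control peaks lacked a Dox peak, against 24% over all control peaks of those lists. In 4 genes there were control peaks only, against 14.2% of all identifiers in those lists. At a log10 FDR of -5 or less there were 60 Dox peaks, with 7 Dox and 9 control peaks at 5' ends. Of the control peaks, 27.4% lacked a Dox peak, against 21% over all control peaks so limited. Control peaks only were found in 3 genes, against 12.9% of all identifiers so limited. At a fold of at least 4 there were 29 Dox and 33 control peaks, 7 Dox and 10 control peaks at 5' ends, and 5 Dox and 6 control peaks at 3' ends. Of these, 41.4% of Dox and 45.5% of control peaks lacked a counterpart, against 31.6% and 45.7% over all peaks so limited. Under the fold limit 18 genes had peaks in both conditions, 6 in Dox only and 8 in control only. The matching shares of all identifiers were not computed for the fold limit. These filters keep fewer peaks in both tables, which by construction lowers the counts and removes counterparts. Integrator genes with peaks in both conditions numbered 14 in the full tables, 7 in the stricter lists, 8 under the FDR limit and 4 under the fold limit; Mediator genes numbered 23, 20, 21 and 14. With windows of 250 nt and 500 nt, 11 Dox and 7 control peaks lay at 3' ends. The other values over all 45 genes stayed within 1.5 times, the binomial interval or the quartiles of those reported, also with 50% overlap, with ties kept, and without the peaks outside Ints5, an alternative added after the data were seen. The median log2 ratio was negative under each alternative, from -0.50 to -0.27. No paired analysis was possible because the tables pool both replicates, and for the same reason no replicate could be left out. Depth is unknown.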
